A study of Mus musculus with 2 samples.

Results

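The clustered protocadherin genes are 58 neighbouring genes on mouse chromosome 18, 14 in the alpha cluster, 22 in the beta cluster and 22 in the gamma cluster. The members were taken by name, and the start of each was read from a RefSeq table of the mm10 build, which held all 58. CTCF peaks of the authors' conservative IDR set, the peaks that passed a reproducibility threshold over both replicates, were taken where the summit lay in a window of chromosome 18 that spans the clusters (alpha members from 36930285 to 37188897, beta from 37264998 to 37521419, gamma from 37661775 to 37841873) and their flanks. This region held 81 of the 43393 conservative peaks. Each peak was assigned to the nearest member start. Pcdhgb8, 1 of the 58 members, is annotated as a transcribed pseudogene.

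ChIP-seq for CTCF had been done on E14TG2a.4 cells, embryonic stem cells of a male 129/Ola mouse embryo kept as a line, with no treatment named in the labels. The series held 2 libraries, biological replicates 1 and 2 of this line, made with an antibody to CTCF, and the labels name a possible control. There was no second condition and no genotype to compare, so all values below describe the members, with no test. Read counts are not part of the peak lists, so the depth was unknown and no interval could be given.

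Clustered protocadherins are cadherin-type adhesion proteins of the cell surface, best known in the nervous system, where each neuron displays its own combination of isoforms. In the alpha and gamma clusters each member has its own promoter and variable exon, which is spliced to constant exons shared by the whole cluster, whereas each beta gene is encoded by its own exon alone. CTCF is a zinc-finger protein that binds a long asymmetric motif and, with cohesin, anchors chromatin loops. It is known to bind near many protocadherin promoters and at distal enhancers of the clusters. The orientation of its motif is known to matter for which sites are brought together. No DNA sequence of the members is shown here, and the CTCF motif is referred to by name.

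Most protocadherin promoters carried a CTCF peak, and 4 of the 8 members without it were C-type genes, which lie at the downstream ends of the alpha and gamma clusters. A conservative summit lay within 500 bp of the start (a start peak) in 50 of the 58 members. These were 11 of 14 alpha members, 20 of 22 beta members and 19 of 22 gamma members. Among 21045 starts of 17274 protein-coding genes on other chromosomes, 5.66% had such a peak. Of 8 Ugt1a genes with a start in the table, another array of alternative promoters spliced to shared exons, 0 had a start peak. Of 9 protocadherins outside the clusters with a start in the table, 0 had one.

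**Figure D1:**
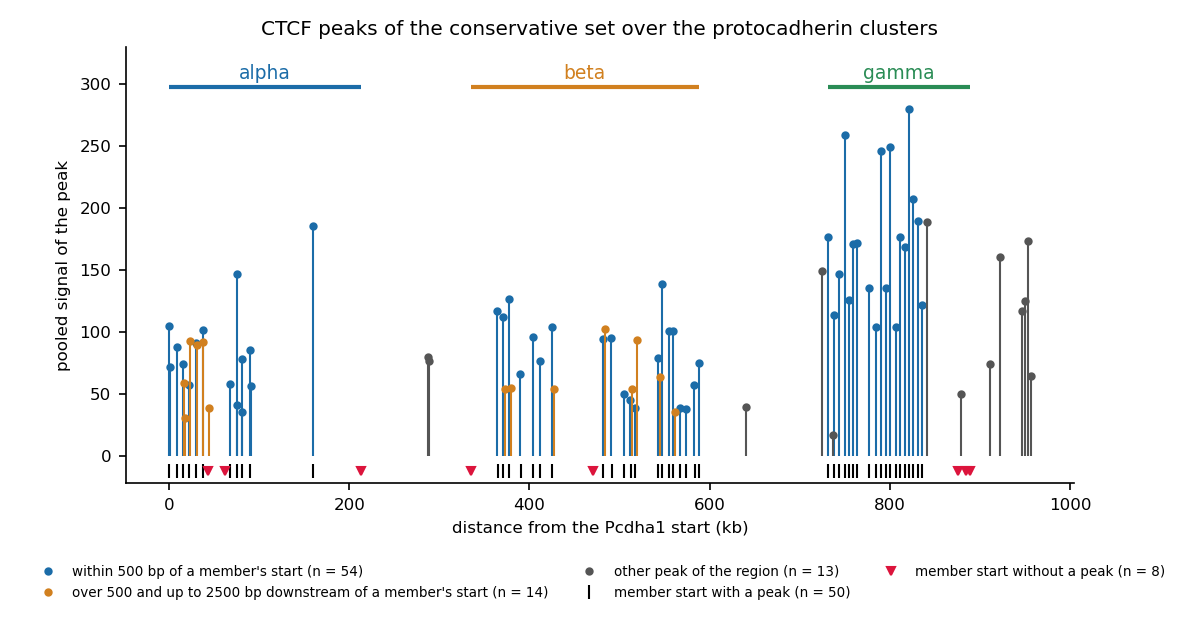
Pooled signal of the 81 conservative CTCF peaks of the region (vertical axis, the authors' scale) against distance from the Pcdha1 start in kb. Blue marks peaks within 500 bp of a member's start, orange those further downstream, up to 2500 bp, grey all others, and ticks and red triangles below mark member starts with and without a peak. The tallest peaks stand at gamma starts, and the red triangles at the end of the gamma cluster are its 3 C-type members.

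Start peaks were strongest in the gamma cluster. The pooled signal, a value per peak on the authors' unstated scale, had a median of 171.1 over the 19 gamma start peaks, 87.5 over the 11 alpha start peaks and 86.9 over the 20 beta start peaks. The median was 77.2 over all conservative peaks and 68.2 over the start peaks of protein-coding genes on other chromosomes. The signal exceeded the median of all conservative peaks in 19 of 19 gamma, 8 of 11 alpha and 11 of 20 beta start peaks.

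To compare the replicates, each replicate's signal was divided by its median over the matched conservative peaks, 41.6 in replicate 1 and 38.7 in replicate 2. On this relative scale the gamma median was 2.11 in replicate 1 and 2.11 in replicate 2. The alpha median was 1.24 in replicate 1 and 0.976 in replicate 2, a mean of 1.11 ± 0.186 (SD, n = 2). The beta median was 0.991 and 0.953, a mean of 0.972 ± 0.0268 (SD, n = 2). Gamma medians stood above those of alpha and beta in both replicates, whereas alpha and beta differed by less than the spread of the alpha value. Single members overlapped between clusters. In replicate 1, 12 of 19 gamma start peaks were above every beta start peak and 10 were above every alpha start peak. In replicate 2 these numbers were 12 and 5.

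**Figure D2:**
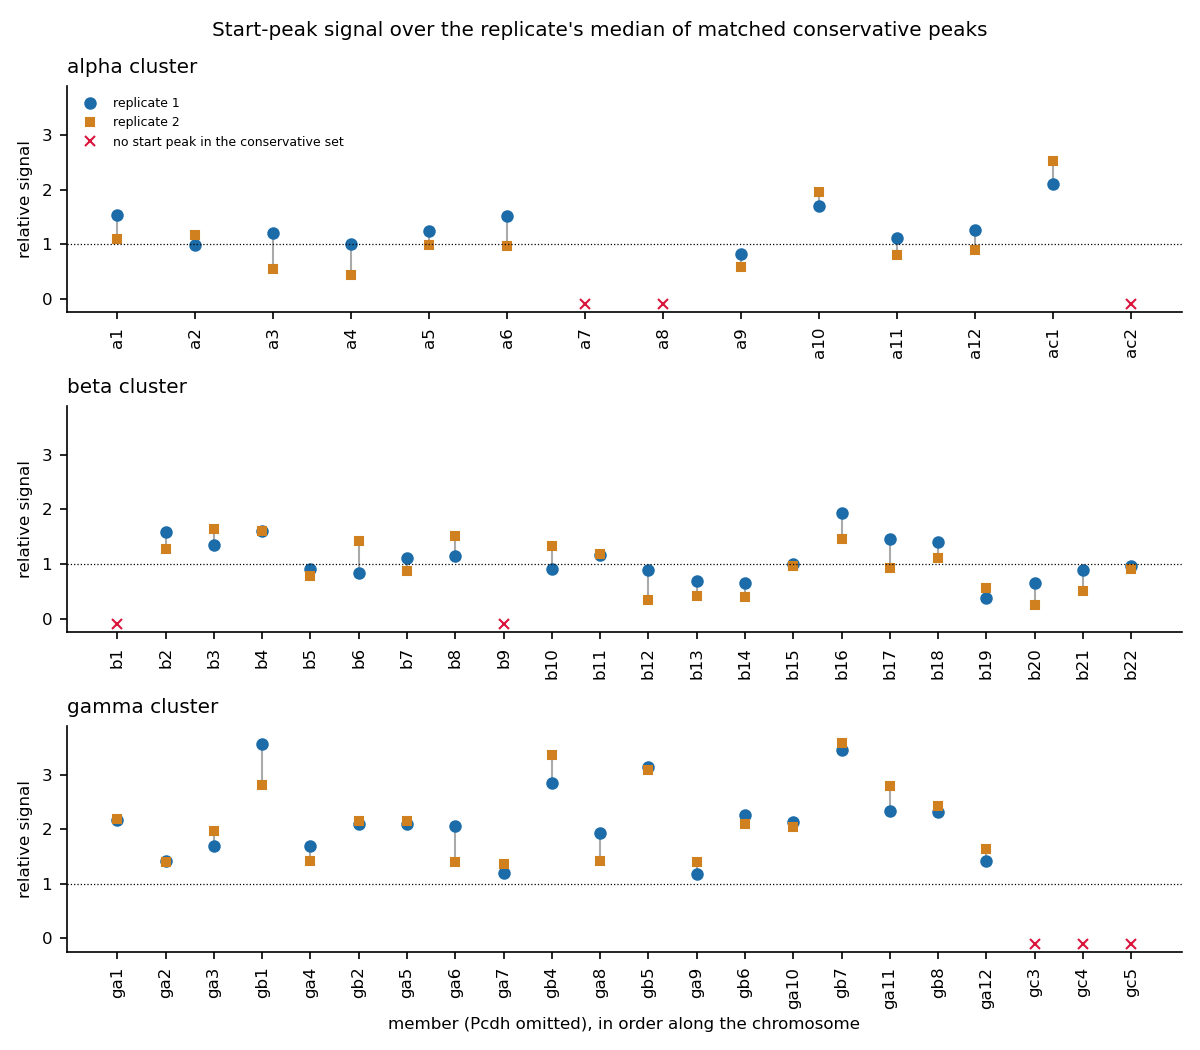
Relative signal of each member's start peak (vertical axis, signal over the replicate's median of matched conservative peaks) in replicate 1 (circles) and replicate 2 (squares), with members in chromosome order along the horizontal axis. Crosses below 0 mark members with no start peak and carry no value, and the dotted line is the replicate's median. All gamma members with a start peak lie above this line in both replicates.

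Among the alpha members, the strongest start peak belonged to Pcdhac1, a C-type gene near the end of the variable array. Its peak at 37089829 to 37090060 had a pooled signal of 185.5 and relative signals of 2.10 in replicate 1 and 2.52 in replicate 2. Pcdha10 followed with a pooled signal of 147.0 and relative signals of 1.70 and 1.95. These were the highest alpha members in both replicates. Pcdha1 had a pooled signal of 104.7, with 1.53 in replicate 1 and 1.09 in replicate 2. Pcdha6 had 101.7, with 1.51 and 0.976. The weakest alpha start peaks were those of Pcdha9, with a pooled signal of 57.6, and Pcdha4, with 57.2. Neighbouring alpha start peaks lay a median of 7.53 kb apart, and the longest step, 69.9 kb, separated Pcdha12 from Pcdhac1.

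Among the beta members, Pcdhb16 had the strongest start peak, with a pooled signal of 138.4 and relative signals of 1.94 in replicate 1 and 1.46 in replicate 2. Pcdhb4 had a pooled signal of 126.9 and the same relative signal to 3 digits in both replicates, 1.60. Pcdhb2 had 116.5, with relative signals of 1.59 and 1.27. Pcdhb3, with a pooled signal of 112.0, had the highest beta value of replicate 2, 1.65, against 1.35 in replicate 1. The order of the strongest beta members thus differed between replicates, and 2 of the strongest 4 were shared. The weakest were Pcdhb14 and Pcdhb20, with pooled signals of 38.5 and 37.7, less than the median of all conservative peaks.

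The gamma order was the most alike between replicates. Gamma start peaks were also the strongest, and over all conservative peaks the replicates differed less at higher signal. There the SD of the log2 ratio of the replicates was 0.543 below a signal of 60, 0.425 from 60 to 120 and 0.290 from 120 to 300. Whether the gamma order is more alike at equal signal was not tested. The strongest 4 gamma members were the same in both replicates, against 3 shared for alpha. Spearman's rho across members was 0.923 over 19 gamma, 0.716 over 20 beta and 0.655 over 11 alpha members, given as descriptions, since members of a cluster share the same libraries. The strongest 4 were all B-type genes, which lie interspersed among the A-type genes along the cluster. Pcdhgb7 had a pooled signal of 280.2 and relative signals of 3.46 in replicate 1 and 3.59 in replicate 2. Pcdhgb1 had 258.8, with 3.56 and 2.81. Pcdhgb5 had 249.0, with 3.15 and 3.10, and Pcdhgb4 had 245.8, with 2.85 and 3.35. The weakest gamma start peaks, those of Pcdhga7 and Pcdhga9, had pooled signals of 103.8 and 103.7, still above the beta and alpha medians.

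B-type and A-type gamma genes differed in level with some overlap. The 7 B-type start peaks had relative signals of 2.09 to 3.56 in replicate 1, with a median of 2.85, and of 2.11 to 3.59 in replicate 2, with a median of 2.81. The 12 A-type start peaks had 1.19 to 2.34 in replicate 1, with a median of 1.82, and 1.36 to 2.79 in replicate 2, with a median of 1.53. In each replicate 4 of 7 B-type members were above every A-type member. The lowest B-type member was exceeded by 4 A-type members in replicate 1 and by 3 in replicate 2.

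Summits lay just upstream of the annotated starts. In 49 of the 50 members with a start peak the summit used was upstream, against 78.7% of the start peaks on other chromosomes. The exception was Pcdhga12, whose summit lay 287 bp downstream. The median summit position was 123 bp upstream in alpha, 77.5 bp upstream in beta and 81 bp upstream in gamma. The median distance in either direction was 84.5 bp for the members and 174.5 bp for start peaks of other genes. These distances depend on where the annotation places each start.

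The clusters differed in a second set of peaks, inside the genes. In alpha, 9 of 14 members had a peak 456 to 634 bp downstream of the start. In 8 of them, those that also had an upstream start peak, the summits lay 641 to 699 bp apart. In beta, 8 of 22 members had a peak 2051 to 2420 bp downstream, at 2286 to 2452 bp from their start peak, and all 8 summits lay inside the gene's annotated span. Pcdha3 had a peak in each stretch, the more distal one at 2283 bp. No gamma member had a conservative peak in either stretch, and the closest case, at Pcdhgc3, lay 2538 bp downstream. With windows drawn after these positions were seen, 400 to 700 bp and 2000 to 2500 bp downstream, 0.794% and 1.38% of starts on other chromosomes had a conservative summit.

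By the fixed classes, 13 members had a peak more than 500 and up to 2500 bp downstream, 5 in alpha, 8 in beta and 0 in gamma, against 5.26% of starts on other chromosomes. On other chromosomes, 7.3% of starts with a start peak also had a peak in that stretch. The alpha count by class is smaller because 4 alpha peaks, those of Pcdha1, Pcdha10, Pcdha11 and Pcdha12, fell 456 to 495 bp downstream and were classed as start peaks. The strongest alpha peaks of the downstream class were those of Pcdha4 (pooled signal 92.8), Pcdha6 (91.8), Pcdha5 (89.5) and Pcdha3 (59.1). The strongest beta ones were those of Pcdhb10 (102.5), Pcdhb14 (93.1), Pcdhb15 (63.4) and Pcdhb4 (54.7). At Pcdhb14 the downstream peak was above the start peak in both replicates, with relative signals of 1.10 and 1.25 downstream against 0.651 and 0.396 at the start. The Pcdhb15 peak at 2210 bp lay closer to the start of Pcdhb16, which is 2012 bp further on.

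**Figure D3:**
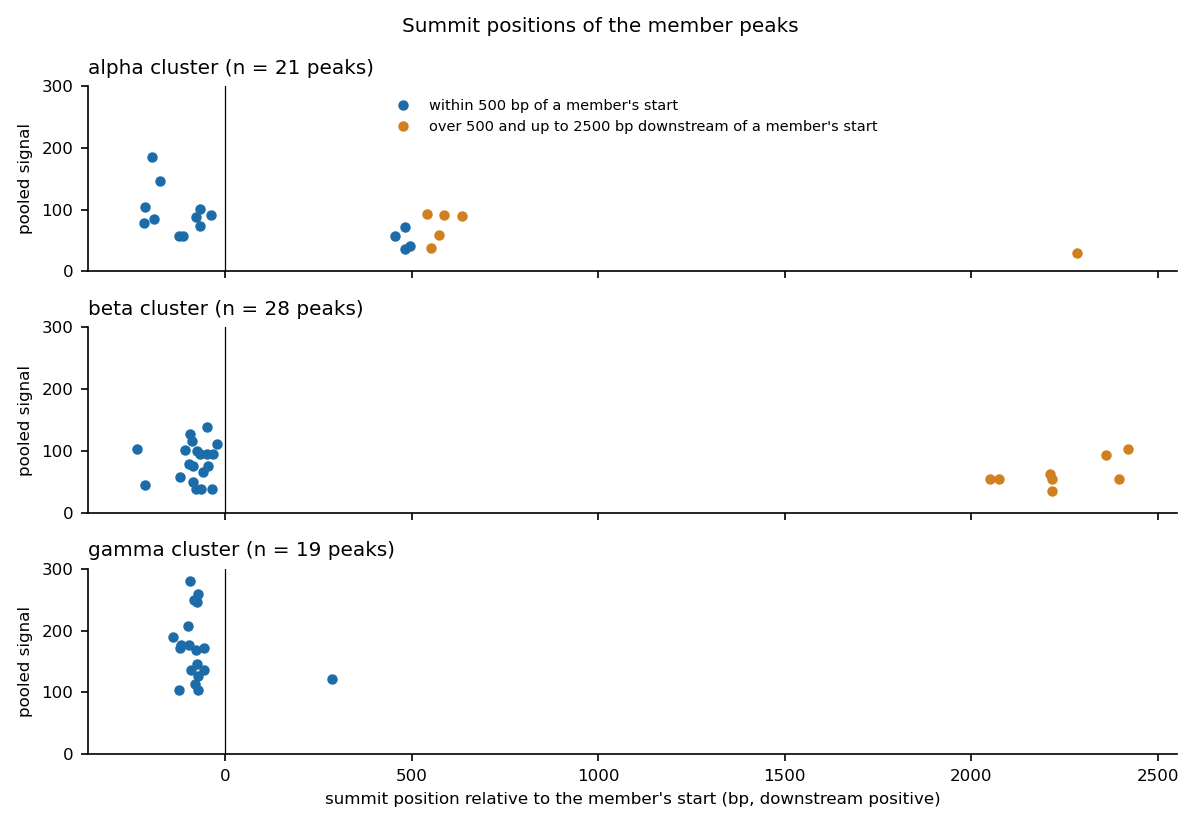
Summit position of each member peak relative to the member's start in bp (horizontal axis, downstream positive) against its pooled signal (vertical axis, the authors' scale), for the alpha, beta and gamma clusters. Blue marks peaks within 500 bp of the start and orange those further downstream, up to 2500 bp. Alpha has a second group at 456 to 634 bp, beta has one at 2051 to 2420 bp, and gamma has neither.

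The longer pooled list, which holds 300000 peaks and background entries, had weaker entries at the same places. In the stretch 400 to 700 bp downstream it had an entry for 12 of 14 alpha members, 0 of 22 beta members and 2 of 22 gamma members, against 6.13% of starts on other chromosomes. In the stretch 2000 to 2500 bp downstream it had one for 3 alpha, 17 beta and 4 gamma members, against 9.45%. In the lists of replicate 1 and replicate 2 the proximal stretch had entries for 12 and 11 alpha and 3 and 2 gamma members. The distal stretch had entries for 16 and 11 beta, 3 and 3 alpha, and 2 and 3 gamma members. No share of starts on other chromosomes was taken for the replicate lists. The proximal stretch of beta had 0 entries in replicate 1 and 2 in replicate 2.

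Of the 8 members without a start peak, 5 had a weak entry within 500 bp of the start in the pooled list. That list includes background entries, and no share of starts on other chromosomes was taken for it within 500 bp. The count of 5 is thus given without a background to set it against. Pcdhb9 had the strongest of the 5 entries. Its summit 26 bp upstream had a pooled signal of 24.2 and was in the authors' optimal set, with 22.5 in replicate 1 and 5.39 at another summit, 262 bp upstream, in replicate 2. Pcdha7 had an entry of 16.1, ranked 50481 in the pooled list, and a conservative peak 552 bp downstream. Pcdha8 had an entry of 14.8 at 411 bp downstream, Pcdhgc3 one of 13.9 at 92 bp upstream, and Pcdhb1, the most upstream beta gene, one of 9.11, less than that list's median of 9.57. The C-type members Pcdhac2, Pcdhgc4 and Pcdhgc5 had no entry within 500 bp of the start in any of the mm10 lists. Pcdhac2 lay farthest from binding, with its nearest conservative summit 53737 bp away.

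Outside the starts and downstream stretches, 13 distal peaks remained. The strongest, at 37772077 to 37772269, lay 6590 bp beyond the Pcdhga12 start, with a pooled signal of 188.7 and relative signals of 2.16 in replicate 1 and 2.57 in replicate 2. Beyond the gamma cluster, 5 peaks lay inside Diaph1, which encodes a formin that nucleates actin filaments. The strongest of these had pooled signals of 173.0 (37883515 to 37883827), 160.2 (37852200 to 37852460), 124.9 (37880342 to 37880512) and 117.2 (37877462 to 37877654). A peak at 37655454 to 37655655, 6227 bp before the Pcdhga1 start, had 148.9, with relative signals of 1.98 and 1.80. The pooled signals of these 6 distal peaks lay within the range of the gamma start peaks.

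Between alpha and beta only 2 conservative peaks were found, 949 bp apart, after a stretch of 127587 bp without a summit that spans Pcdhac2. The peak at 37217466 to 37217569 had a pooled signal of 79.7 and relative signals of 1.04 and 0.909. The peak at 37218319 to 37218634 had 76.5, with 0.922 and 0.930. The signals of these intergenic neighbours differed by less than the spread between replicates, and both were close to the median of all conservative peaks.

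The replicates differed most at weak start peaks, in the direction of replicate 1. Pcdhb12 had relative signals of 0.885 in replicate 1 and 0.332 in replicate 2, a log2 ratio of 1.41. Pcdhb20 had 0.646 and 0.258, a log2 ratio of 1.32, and the Pcdha4 start peak had 0.997 and 0.438, a log2 ratio of 1.19. Of the 81 region peaks, 4 differed over 2-fold, against 3.2% of all matched conservative peaks. Large ratios at weak peaks were general: 6.42% of all matched conservative peaks with a signal below 60 differed over 2-fold. From 120 to 300 the share was 0.206%. Of the 22 region peaks below 60, 3 did. The median log2 ratio was 0.49 over the 11 upstream alpha start peaks, 8 of them higher in replicate 1, and -0.16 over the 10 alpha peaks downstream. In beta it was 0.27 at the start peaks and -0.13 at the downstream peaks. In gamma it was -0.04. Alpha start peaks were above their proximal downstream neighbour in 8 of 8 members in replicate 1 and in 5 of 8 in replicate 2, so this order did not hold in both replicates for Pcdha3, Pcdha4 and Pcdha6.

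**Figure D4:**
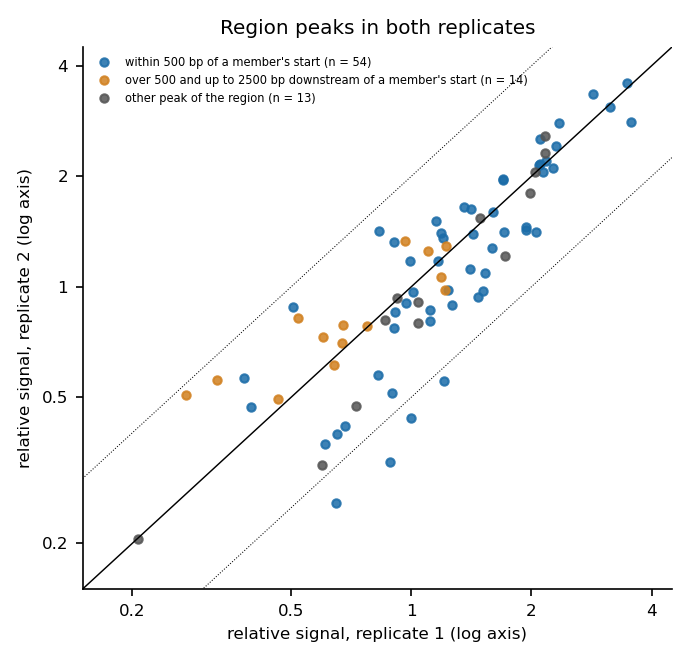
Relative signal of the 81 region peaks in replicate 1 (horizontal axis) and replicate 2 (vertical axis), both on log axes, coloured by class. The solid line marks equal values and the dotted lines a 2-fold difference, and the 4 points beyond the lower dotted line are start peaks of Pcdhb12, Pcdhb20, Pcdha4 and Pcdha3.

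The authors' separate mm9 lists were compared with starts of the GENCODE vM1 annotation on that build, with no coordinates converted. That annotation places alpha and gamma transcripts under a few shared entries, so starts rather than named members were counted for those clusters. It holds 11 alpha starts for 14 members and 9 gamma starts for 22 members, so mm9 peaks away from an annotated start can still lie at the start of a member. In beta it holds 23 starts for 22 genes, and in alpha a pair of neighbouring starts shares a peak, so not every start is a separate member. A pooled mm9 peak overlapped the interval of 500 bp either side of 10 of 11 alpha, 22 of 23 beta and 6 of 9 gamma starts, against 8.11% of starts on other chromosomes. In replicate 1 alone these numbers were 9, 22 and 6, and in replicate 2 alone 9, 21 and 6. With each peak counted once, the median pooled mm9 signal was 13.6 over the 9 overlapping alpha peaks, 11.25 over the 21 beta peaks and 18.6 over the 6 gamma peaks, beside 11.96 over all mm9 peaks. Gamma was again the highest of the clusters.

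The mm9 build came with a genome, so a CTCF motif of 19 bp was learned from the 5000 strongest mm9 peaks outside chromosome 18, and the best match in each peak was scored on both strands. The score is in bits, and the main threshold, 14.5 bits, was reached by 1% of windows flanking the peaks. Member start peaks held weaker matches than CTCF peaks elsewhere. Of the 36 mm9 peaks at member starts, 5 reached the threshold (13.9%), against 71.4% of peaks on other chromosomes. Whole peaks are mostly longer than the flanking windows, and 10.1% of the peaks on other chromosomes reached it when shifted off the peaks. The median best score was 10.8 bits at member starts, 17.2 in peaks on other chromosomes and 7.60 in the shifted intervals. The peaks on other chromosomes include the 5000 from which the motif was learned. At a lower threshold of 8.50 bits, passed by 5% of the flanks, 25 of the 36 held a match (69.4%), against 94.9% of peaks elsewhere and 40.9% of the same intervals shifted off the peaks.

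By their medians, the mm9 peaks of the span that holds gamma had a higher signal and a lower score than the alpha and beta peaks. The 28 mm9 peaks between the last beta and the last gamma start include intergenic ones before gamma. They had a median signal of 18.1 and a median best score of 7.57 bits. Of the 28, 4 reached the main threshold (14.3%), beside 10.1% of the shifted intervals. Of the 7409 peaks on other chromosomes with at least that signal, 78.3% reached it, and their median score was 17.7 bits. These include the 5000 peaks from which the motif was learned, so their scores are high in part by construction. In alpha, 9 of 14 peaks reached the threshold, and in beta 3 of 32, a smaller share than in the gamma span. At annotated starts alone, 5 of 9 alpha, 0 of 21 beta and 0 of 6 gamma peaks reached it. The lowest single score of the clusters, 3.10 bits, was in beta. A low score says only that the learned motif matches these letters poorly.

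The matches of alpha and of beta start peaks lay on a common strand. The best match lay on the same strand as the genes in 9 of 9 alpha and 21 of 21 beta start peaks. On other chromosomes this held for 55.9% of starts with a peak. That share counts starts, so a peak near several starts counts more than once, whereas each member peak counts once. Of the member matches, 8 in alpha and 14 in beta reached the lower score of 8.50 bits. The other peaks of beta had the opposite orientation: the best match lay on the opposite strand in 9 of 11, and in all 9 that reached the lower score. The alpha peaks away from an annotated start, which can include starts of members missing from this annotation, had it on the same strand as the genes in 5 of 5. Alpha start peaks on mm9 were up to 1736 bp wide and held the downstream stretch as well. In most of them the best match was the one 459 to 549 bp downstream, including all 5 that reached the main threshold. The strand count of alpha start peaks thus mostly describes that stretch and not the start. In gamma the lower score was reached at 3 of 6 start peaks, with 2 best matches on the same strand as the genes, and at 8 of the other 22 peaks, all 8 on the opposite strand. As most gamma members have no start of their own in this annotation, these 22 peaks are a mixture and not a class apart from start peaks. The neighbouring peaks between alpha and beta, at 37376732 to 37377638 and 37377691 to 37378560 on mm9, had their best matches, of 20.2 and 16.1 bits, on the opposite strand.

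Matches lay in the same stretches as the peaks in alpha and beta, though not always at the summits. For gamma too few starts were annotated to tell. The start window ran from 300 bp upstream to 100 bp downstream of the start. In it 6 of 11 alpha, 13 of 23 beta and 1 of 9 gamma starts had a match at the lower score. On other chromosomes 27.5% of starts had one. Of the 9 gamma starts only 6 overlapped an mm9 peak, and 1 match in 9 cannot be told apart from that share. At the main threshold, 0 starts of any cluster had a match, against 3.85%. The best of these matches lay on the same strand as the gene at all 20 starts, at a median of 189 bp upstream in alpha and 72 bp upstream in beta. Between 400 and 700 bp downstream, 8 of 11 alpha starts had a match at the lower score, against 16.8% of starts on other chromosomes, with all 8 best matches at 459 to 549 bp and on the same strand as the gene. At the main threshold 5 had one, against 1.88%. Between 2000 and 2500 bp, 16 of 23 beta starts had a match at the lower score, against 23.9%, and the best lay on the opposite strand in 14 of them. Of the beta members with a downstream peak, Pcdhb3, Pcdhb10 and Pcdhb14 had this match near the summit. At most others it lay further downstream, for example at 2392 bp against a summit at 2217 bp for Pcdhb4. In gamma 5 of 9 starts had one there, 4 with the best on the opposite strand, although no gamma member had a conservative peak in that stretch. The highest-scoring of these gamma matches, of 16.4 bits, lay under an mm9 peak with a signal of 4.5. Pcdhb9, whose start peak was weak, had a match of 10.9 bits on the same strand, 57 bp upstream, and Pcdhb1 had none in the window.

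**Figure D5:**
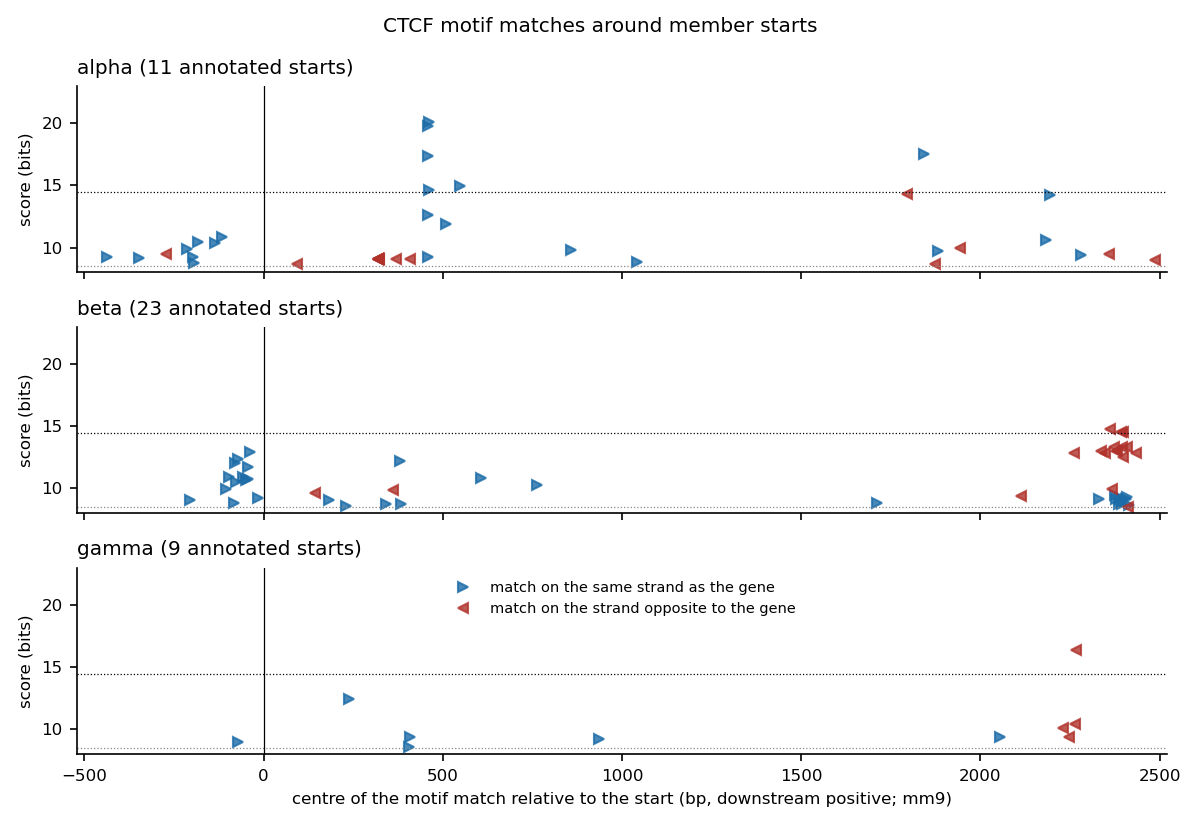
CTCF motif matches around annotated mm9 starts, with the centre of the match relative to the start in bp (horizontal axis, downstream positive) and its score in bits (vertical axis). Right-pointing blue marks lie on the same strand as the gene and left-pointing red marks on the strand opposite to it, and dotted lines mark the scores reached by 1% and 5% of flanking windows. Alpha shows same-strand matches at 459 to 549 bp, and the best beta matches of the distal stretch lie at a median of 2387 bp, 14 of 16 on the opposite strand.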

How the data were processed

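The members, the gene families compared and the counting rules were chosen with earlier results of these data known. Per the file headers of the deposited descriptions, the mm10 lists were derived from alignments and a control, for each replicate and pooled, and the IDR sets from these lists. The deposited signal (7th column) is on the authors' scale, which is not stated. Not given in the sources used here: aligner, peak caller and IDR settings. The lists hold no read counts.

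Replicate values were taken from the nearest summit within 100 bp of a conservative summit. No mm10 genome or exon models were used here, so a fixed 2500 bp stood for the variable exon. The mm9 lists were used with the mm9 genome and GENCODE vM1. The motif was learned by expectation maximisation from an overrepresented word found by script. The motif model and peak classes were tested on simulated data. Named were members without a start peak, the strongest 4 and weakest 2 per cluster, C-type members, the strongest 4 downstream peaks per cluster, the 8 strongest distal peaks and the 3 largest replicate ratios. Pcdhga8, Pcdhga11, Pcdhga12, Pcdha11, Pcdha12 and Diaph1 were named after their values were seen. Alternatives covered windows, peak set, signal and motif thresholds, matching distance and leaving out each replicate. Python 3.11.15, numpy 2.4.6 and pandas 2.3.3 were used.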

Additional observations from a re-analysis of the deposited data

How the results depend on the processing

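The number of members with a start peak stayed between 49 and 51 under the alternative peak set, start windows and single replicates. Changes were of 1 member at a time, except in the optimal set, where Pcdhb14 was lost and Pcdhb9 gained for the same total of 50. Using only the other replicate's list gave 83 to 85 region peaks, 49 to 51 members with a start peak and 16 to 17 members with a downstream peak. The gamma members Pcdhga8 and Pcdhgb1 gained a downstream peak without replicate 1, and Pcdhga11 did without replicate 2. The count of 0 gamma members with a downstream peak thus did not hold in either replicate alone. Counting only peaks of at least the median conservative signal left 50 of the 81 region peaks. This threshold was not run on the number of members with a start peak. Of the 50 members with one, 38 had a start peak above that median. With a start window of 250 bp the gamma median signal was 171.5 in place of 171.1, a difference above the very small replicate SD, and 18 members had a downstream peak; with 1000 bp 9 had one. The number of member start peaks with a motif match was 0 with the score passed by 0.1% of flanks and 25 with that passed by 5%, against 5 with that passed by 1%. The replicates are 2 libraries of 1 cell line, and the depth behind each peak is unknown. No paired analysis was possible because there was a single group.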
